A study of Schmidtea mediterranea with 5 samples.

Results

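Of 13556 contigs with at least 100 unique molecular identifiers (UMIs) over 3 single-cell libraries of planarian wounds at 16 hpa (hours post amputation), 87 were at least 2-fold higher at anterior-facing than at posterior-facing wounds in both anterior-facing libraries. By cell cluster, 48 of the 87 were highest in 1 small cluster, called epidermal lineage-like, a name that rests mainly on 1 marker. The other 39 were highest in 10 clusters, among them unnamed, neuron-like, muscle-like and ciliated-like ones. The 87 contigs were selected on these same values: UMIs were summed per library over barcodes with 200 to 2500 genes (contigs with a UMI) and at least 1000 UMIs, levels were expressed as CPM (UMIs per 1000000), and 1 was added before each ratio. The difference between the wound sides at 16 hpa is therefore a description of what was chosen, and no test was made of it. The 87 contigs were 0.642% of those tested, and 17 contigs (0.125%) were at least 2-fold lower in both libraries. With no upper limit on genes per barcode, 35 of the 48 and 10 of the other 39 fell below 2-fold.

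Planarians regenerate a head at a wound that faces anteriorly and a tail at a wound that faces posteriorly. Positional information held largely in muscle is known to take part in this choice. The epidermis is renewed from neoblasts, the dividing stem cells, through postmitotic progenitors that mature while they move outwards, and epidermal cells cover the cut surface after amputation.

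The study sampled post-pharyngeal fragments of the asexual clonal *Schmidtea mediterranea* strain CIW4 with droplet-based scRNA-seq. The cells were sorted as X-insensitive, a gate on DNA content that leaves out most dividing cells. Single libraries were made at 0 hpa, at 6 hpa (anterior-facing wounds) and at 16 hpa (posterior-facing wounds), and 2 libraries at 16 hpa (anterior-facing wounds), each from pooled animals. Replicate 1 of the anterior-facing libraries had no RNAi, whereas the animals of replicate 2 had been fed control dsRNA against unc-22, 4 feedings in all. The later time is 18 hpa in the labels and 16 hpa in the study's text, which is followed here. Per the labels, cells at 6 hpa were gated on medium and high calcein and those of the other libraries on low propidium iodide, so that time and sort cannot be told apart at 6 hpa. The study's methods assign the dyes by sample number, in a way that differs in part from the labels.

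The libraries held 21746895 to 37981205 UMIs, and 3052 to 6935 barcodes per library passed as cells. The 6 hpa library stood apart, with a median of 744 genes per cell against 1630 to 1726 in the others. Any pair of libraries shared 0 to 11 cell barcodes. The upper limit of 2500 genes left out 1643 and 703 barcodes in anterior-facing replicates 1 and 2, 1519 at the posterior-facing wound, and 1007 and 34 at 0 and 6 hpa. Cells were clustered without the 87 contigs into 29 clusters, of which 3 held over 75% of their cells from 1 library. The comparison of sides rests on a single posterior-facing library. All intervals given are exact 95% intervals and cover counting error only.

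The anterior-facing libraries also differed from each other, mostly with replicate 1 the higher. Replicate 1 was at least 2-fold above replicate 2 for 640 contigs (4.72%), and the reverse held for 41 (0.302%). Replicate 1 was at least 2-fold above the posterior-facing library for 278 contigs (2.05%), and replicate 2 for 144 (1.06%). Among the 87, the replicates were over 2-fold apart for 8 contigs, 4 in each direction. The smaller of a contig's ratios in the anterior-facing libraries, called the smallest ratio, had a median of 2.76 over the 87 contigs (2.01 to 32.1) against 0.907 over all contigs tested. The intervals of both anterior-facing levels lay above that of the posterior-facing level for 87 of 87, a direction that the choice of members fixes.

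**Figure D1:**
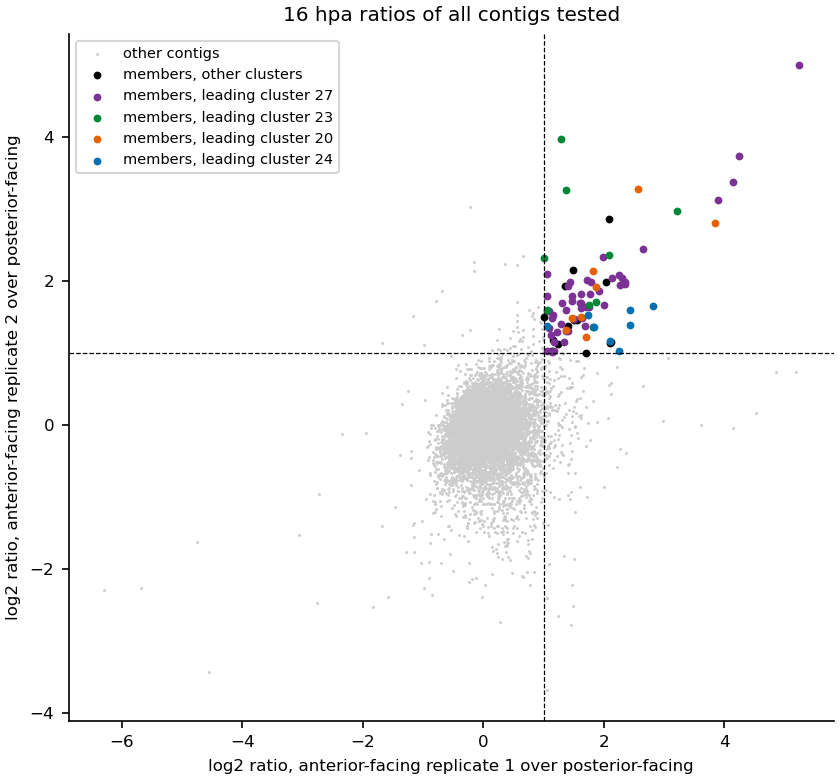
Log2 ratio of anterior-facing replicate 1 (x axis) and replicate 2 (y axis) over the posterior-facing library at 16 hpa, one point per contig tested, with dashed lines at 2-fold. The 87 members fill the upper right corner by the rule that chose them, and colours mark the cluster in which each was highest.

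The contig that stood farthest from the rest was dd_Smed_v6_574_0. Its level was 3.26 CPM at 0 hpa, 6.46 at 6 hpa, 46.7 and 39.4 in anterior-facing replicates 1 and 2, and 0.261 at the posterior-facing wound. The posterior-facing value rests on 5 UMIs, against 775 and 992. The ratio without the added 1 was 179 (76.5 to 554) in replicate 1 and 151 (64.6 to 467) in replicate 2. Both anterior-facing levels lay above all other libraries, and the posterior-facing level lay below 0 hpa.

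The next highest smallest ratios, 13.3, 10.4 and 8.72, belonged to a trio from the same cluster. The level of dd_Smed_v6_55_0 was 54.3 CPM at 0 hpa, 77.7 at 6 hpa, 303 and 212 in the anterior-facing replicates, and 14.96 at the posterior-facing wound. In the same order dd_Smed_v6_644_0 stood at 12.5, 13.1, 47.4, 27.4 and 1.72, and dd_Smed_v6_460_0 at 14.4, 9.62, 57.5, 33.2 and 2.92. All 3 were lowest at the posterior-facing wound and highest in anterior-facing replicate 1, with 0 and 6 hpa between.

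**Figure D2:**
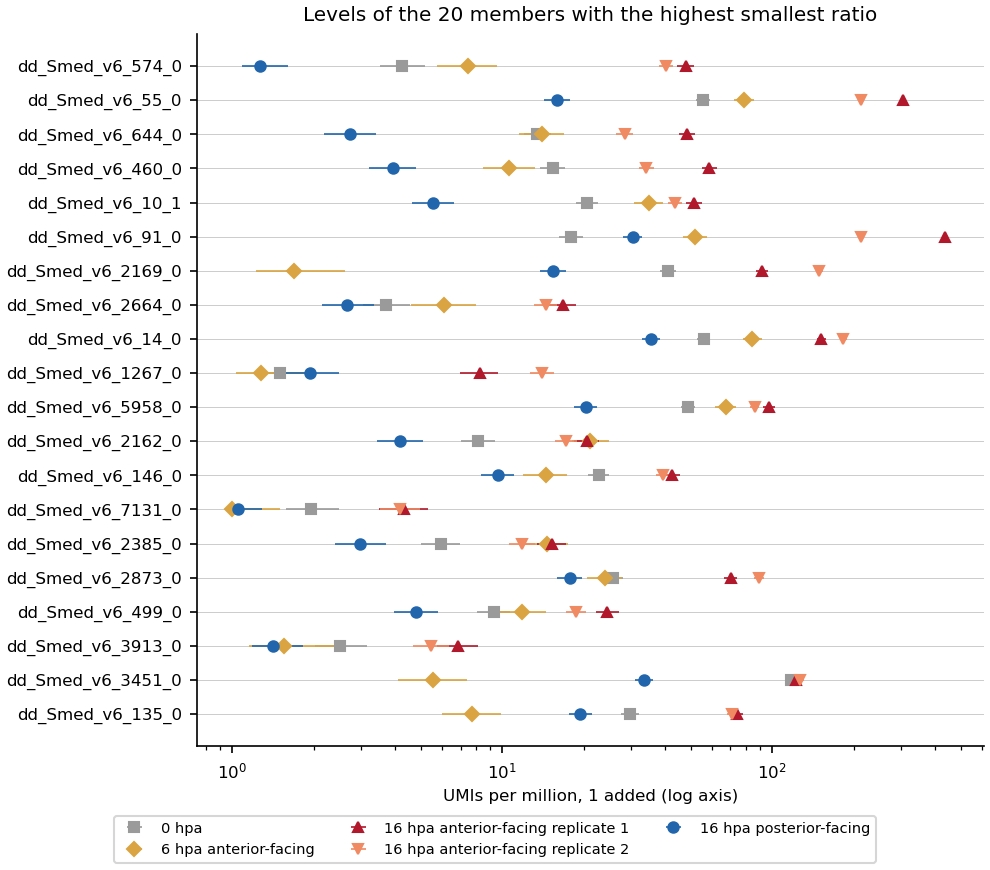
Level of the 20 members with the highest smallest ratio in each of the 5 libraries, in UMIs per 1000000 (CPM) with 1 added on a log axis, with exact 95% Poisson intervals. The posterior-facing library (circles) lies left of both anterior-facing libraries (triangles) for each contig by the choice of members, while 0 hpa (squares) and 6 hpa (diamonds) vary in their place.

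Cluster 27 led 48 of the 87 contigs, meaning that their CPM over the 16 hpa libraries was highest there among clusters of at least 50 cells. This cluster of 173 cells was called epidermal lineage-like because 5 of 6 epidermal lineage markers led in it (leading: at least 2-fold above the median cluster). At most 1 marker of any other class led. Of the 5, only dd_Smed_v6_920_0 exceeded its level over all cells, at 4899 CPM against 562 to 692 in the libraries. The others were below every library. Their levels were 376 against 795 to 3349 (dd_Smed_v6_332_0) and 2630 against 4839 to 12009 (dd_Smed_v6_61_0). For dd_Smed_v6_69_0 they were 1124 against 1738 to 6583, and for dd_Smed_v6_363_0 304 against 1011 to 2484. The name thus rests mainly on 1 marker. The name depends on the clustering: at resolution 0.5 the cluster that led most members (39) was ciliated-like, and with the members kept in the clustering it was unnamed (48). With clusters of 1 name merged, the leading class was ciliated-like for 27 members and epidermal lineage-like for 24, so that the cluster is given by its number here. The 48 contigs summed to 1237 CPM at 0 hpa, 1242 at 6 hpa, 2810 and 2865 in the anterior-facing replicates, and 803 at the posterior-facing wound. With no upper limit on genes the sums were 2095, 1228, 3616, 3032 and 1962 in the same order, so that the posterior-facing sum came near that of 0 hpa and 6 hpa was the lowest.

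Cluster 27 held a larger share of anterior-facing cells. It took 1.05% of cells in replicate 1 (0.764% to 1.42%, 43 cells), 1.04% in replicate 2 (0.813% to 1.31%, 72 cells) and 0.403% at the posterior-facing wound (0.243% to 0.629%, 19 cells). At 0 and 6 hpa its share was 0.503% (26 cells) and 0.426% (13 cells). The intervals of both anterior-facing shares lay above that of the posterior-facing share. The cells were large, with a median of 7041 and 6231 UMIs in the anterior-facing replicates and 6957 at the posterior-facing wound, and a median of 2170 genes, close to the limit of 2500.

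The upper gene limit touched this cluster unequally. When cells were clustered again with no upper limit, a step chosen after seeing the data, the cluster that led most members (51) took 1.73% of cells in anterior-facing replicate 1 (1.41% to 2.10%, 99 cells), 1.48% in replicate 2 (1.22% to 1.78%, 113 cells) and 1.09% at the posterior-facing wound (0.848% to 1.38%, 68 cells). Of these cells, 52 of 68 (76.5%) at the posterior-facing wound had over 2500 genes, against 50 of 99 (50.5%) and 20 of 113 (17.7%) in the anterior-facing replicates. The limit thus removed a larger share of such cells from the posterior-facing library. Without it, the interval of the posterior-facing share overlapped that of replicate 2 and not that of replicate 1.

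**Figure D3:**
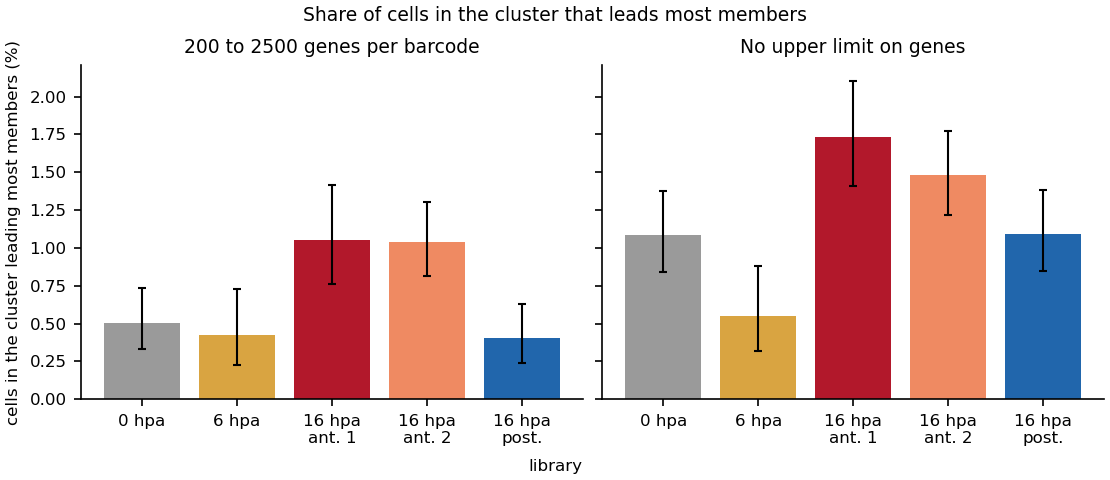
Share of cells (%) in the cluster that led most members, by library, with exact 95% binomial intervals, for barcodes of 200 to 2500 genes (cluster 27) and for cells clustered with no upper limit on genes. The posterior-facing share is 0.403% with the limit and 1.09% without it, against 1.05% and 1.73% in anterior-facing replicate 1.

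With no upper limit, 42 of the 87 contigs were at least 2-fold higher in both anterior-facing libraries, where 52 of 14865 contigs passed (0.35%). These were 13 of the 48 contigs led by cluster 27 and 29 of the 39 led by other clusters. The median smallest ratio of the 87 was then 1.96, and 79 were above 1. The barcodes on which the members were selected are part of these sums, so that these counts reuse values of the selection.

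The 13 contigs of cluster 27 that passed without the limit began with the 4 described above. Without it dd_Smed_v6_574_0 stood at 41.7 and 37.2 against 0.856 CPM, the last being the posterior-facing level, from 29 UMIs. In the same way dd_Smed_v6_55_0 stood at 331.9 and 211 against 39.1 CPM, dd_Smed_v6_460_0 at 63.4 and 35.8 against 10.1 CPM and dd_Smed_v6_644_0 at 53.7 and 28.1 against 7.82 CPM. Their anterior-facing levels were close to those within the limit, while their posterior-facing levels were higher, and their smallest ratios came to 20.6, 5.28, 3.32 and 3.30.

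The other 9 of the 13 had smallest ratios of 2.01 to 2.94 without the limit. Among them dd_Smed_v6_343_0, one of the most abundant members, was at 238 CPM at 0 hpa, 233 at 6 hpa, 535 and 635 in the anterior-facing replicates and 191 at the posterior-facing wound within the limit, and at 616 and 632 against 236 CPM at 16 hpa without it. Its levels were similar with and without the limit. In the order of the libraries dd_Smed_v6_135_0 was at 28.7, 6.74, 72.9, 69.9 and 18.5 within the limit and at 55.0 and 64.7 against 19.7 CPM at 16 hpa without it, and dd_Smed_v6_2664_0 was at 2.71, 5.09, 15.7, 13.5 and 1.67 and then at 17.8 and 14.4 against 5.90 CPM.

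The remaining 35 contigs of the cluster fell below 2-fold without the limit, with a median smallest ratio of 2.59 within it and 1.15 without it (0.790 to 1.98), and 8 of them were below 1. At 16 hpa dd_Smed_v6_5958_0 was at 96.3 and 84.9 against 19.3 CPM within the limit and at 139.7 and 97.0 against 84.6 CPM without it. For dd_Smed_v6_146_0 the levels were 41.4 and 38.4 against 8.60 CPM and then 64.3 and 43.8 against 37.5 CPM. For dd_Smed_v6_715_0 they were 82.7 and 82.3 against 36.3 CPM and then 133 and 95.2 against 121 CPM. In these 3 the posterior-facing level rose most when cells of over 2500 genes were included, and for dd_Smed_v6_715_0 it then lay between the replicates.

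**Figure D4:**
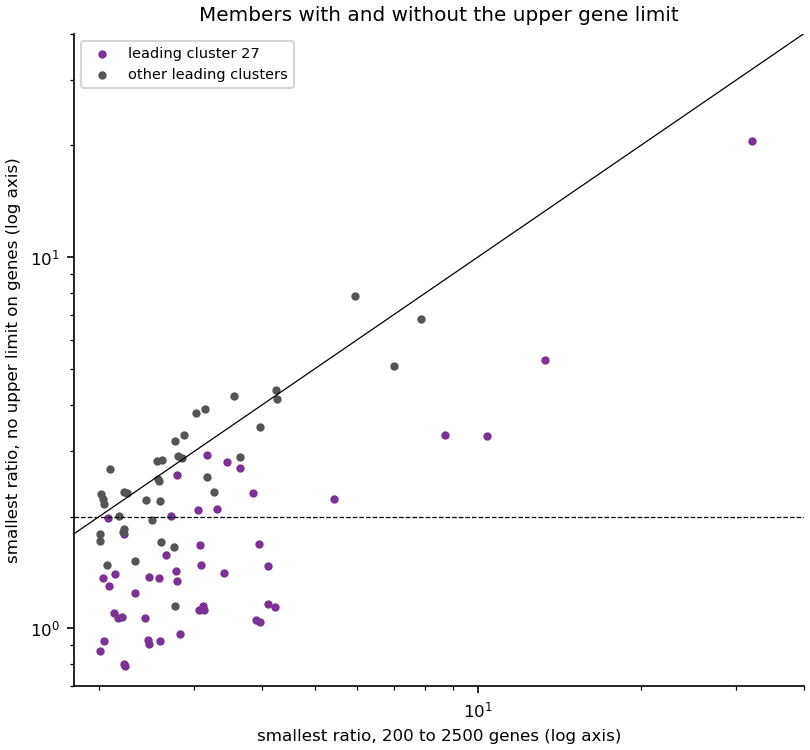
Smallest ratio of each of the 87 members over the posterior-facing wound among barcodes of 200 to 2500 genes and with no upper limit on genes, both on log axes, with the line of equality and a dashed line at 2-fold. Of the 48 members led by cluster 27, 35 lie below 2-fold without the limit, and dd_Smed_v6_574_0 stands apart at 32.1 and 20.6.

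Levels within cluster 27 also set these contigs apart. There dd_Smed_v6_574_0 was at 1876 and 1447 CPM in the anterior-facing replicates and had 0 of 127520 UMIs in the 19 posterior-facing cells. Against the level that 3 counts would give in those cells, 23.5 CPM, it was at least 79.7-fold and 61.5-fold higher. In the cluster dd_Smed_v6_55_0 was at 12576 and 8475 against 1466, and dd_Smed_v6_135_0 at 2129 and 1703 against 7.84. By contrast dd_Smed_v6_1321_0 was at 2319.8 and 2095 against 2070.3, and dd_Smed_v6_715_0 at 3284 and 2862 against 3976. The first 3 were higher per UMI in the anterior-facing cells of the cluster, whereas the last 2 differed little or were lower. Over the 48, the median ratio within the cluster was 1.85 in replicate 1 and 1.54 in replicate 2, and outside it 1.95 and 2.68. The posterior-facing level of dd_Smed_v6_135_0 lay below the level that 3 counts would give, so that its ratio within the limit is uncertain. In the cluster made with no upper limit, dd_Smed_v6_574_0 was at 989.7 and 1251 against 5.77. There dd_Smed_v6_135_0 was at 863 and 1401 against 176, a smaller difference than within the limit, and dd_Smed_v6_55_0 at 7748 and 6665 against 1258.

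The ratios were also split, over all clusters, into a part from cluster makeup and a part from level within clusters. For the 48 contigs the median ratio of the makeup part was 1.72 in replicate 1 and 1.87 in replicate 2. The median ratio left within clusters was 1.84 and 1.75. With each library given the same cluster makeup, 56 of the 87 members stayed at least 2-fold higher in both libraries, 19 of the 48 and 37 of the other 39, where 0.539% of all contigs passed. The members were selected on the values that enter this count. The split and the count used cells within the upper gene limit, which removed unequal shares of the leading cluster's cells by library. Neither was made without the limit, so that the makeup part cannot be told apart from the effect of the limit.

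Cluster 23 led 9 contigs. It was unnamed, since only 2 of 5 intestine markers led in it, and it held 31 (0.76%), 66 (0.952%) and 46 cells (0.976%) of anterior-facing replicates 1 and 2 and the posterior-facing wound. Its share was thus not higher at anterior-facing wounds. Within it the median ratio of the 9 was 10.2 in replicate 1 and 13.5 in replicate 2, and outside it 1.13 and 0.760. Without the upper gene limit 6 of the 9 were at least 2-fold higher in both anterior-facing libraries.

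The first contig of this group was dd_Smed_v6_10_1. One annotation table of the study pairs it with COLEC10, a collectin with a C-type lectin domain, and another table pairs it otherwise, so that the name is in doubt. Its level was 19.6 CPM at 0 hpa, 33.96 at 6 hpa, 50.3 and 42.5 in the anterior-facing replicates, and 4.54 at the posterior-facing wound. In cluster 23 it was at 6424 and 5166 against 334. Of its 87 posterior-facing UMIs, 62.1% came from a single cell. In barcodes under 100 UMIs, which hold mostly free RNA, it was at 64.9 and 32.9 against 44.1 CPM, with replicate 1 above and replicate 2 below the posterior-facing level.

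Of the 4 members over 2-fold higher in replicate 2 than in replicate 1, 3 were led by cluster 23. The 16 hpa levels of dd_Smed_v6_19_0 were 4.88 and 36.97 against 1.41 CPM, and those of dd_Smed_v6_132_0 were 13.8 and 53.8 against 4.69 CPM. The intestine marker dd_Smed_v6_115_0, the only contig of the marker lists among the 87, was at 5.17 CPM at 0 hpa, 7.15 at 6 hpa, 4.64 and 7.24 in the anterior-facing replicates, and 1.72 at the posterior-facing wound. Its anterior-facing levels were close to those of 0 and 6 hpa, and the posterior-facing library was the low one. Without the upper gene limit the smallest ratio was 2.21 for dd_Smed_v6_19_0, 1.71 for dd_Smed_v6_132_0 and 1.48 for dd_Smed_v6_115_0.

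Unlike the rest of this group, dd_Smed_v6_14_0 had only 25.6% of its 16 hpa UMIs in cluster 23. Its level was 54.7 CPM at 0 hpa, 83.3 at 6 hpa, 151 and 182 in the anterior-facing replicates, and 34.6 at the posterior-facing wound. Outside cluster 23 it was at 131 and 124 against 27.9. Its difference was also seen in barcodes over 2500 genes, at 151 and 149 against 36.6 CPM, and in those under 100 UMIs, at 195 and 146 against 47.5 CPM.

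Cluster 20 led 8 contigs, among them the most abundant of the 87. It was unnamed and held 90 (2.21%), 163 (2.35%) and 99 cells (2.10%) of anterior-facing replicates 1 and 2 and the posterior-facing wound. The markers that led in it were 4 of 15 neuron, 2 of 12 muscle, 1 of 6 epidermal lineage and 2 of 3 parapharyngeal secretory ones. Of the last 2, dd_Smed_v6_385_0 (4073 CPM in the cluster) went the other way from the members over all cells, at 2.35 and 53.2 CPM in the anterior-facing replicates against 264 at the posterior-facing wound. The other, dd_Smed_v6_515_0, was at 20.6 and 8.83 against 12.9. The part of cells with these markers in the members' levels was not tested. The level of dd_Smed_v6_750_0 was 573.5 CPM at 0 hpa, 2.89 at 6 hpa, 897 and 1117 in the anterior-facing replicates, and 252 at the posterior-facing wound. In the same order dd_Smed_v6_91_0 stood at 17.0, 50.9, 436, 212 and 29.5, and dd_Smed_v6_2169_0 at 40.2, 0.687, 90.7, 148 and 14.4. The level of dd_Smed_v6_750_0 was thus high at 0 hpa already, while that of dd_Smed_v6_91_0 was low in the libraries other than both anterior-facing ones at 16 hpa. Without the upper gene limit 6 of the 8 were at least 2-fold higher in both anterior-facing libraries.

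Single cells carried much of these levels. At the posterior-facing wound 1 cell held 97.4% of the UMIs of dd_Smed_v6_750_0, 97.4% of dd_Smed_v6_3451_0, 97.1% of dd_Smed_v6_13904_0 and 96.0% of dd_Smed_v6_2169_0. In anterior-facing replicate 1 a single cell held 42.2%, 63.7%, 50.4% and 59.8% of the same contigs. Over the 87, 9 contigs had over 50% of their posterior-facing UMIs in 1 cell. With the highest cell of each contig left out in each library, an alternative chosen after seeing the data, 84 of the 87 stayed at least 2-fold higher, where 0.708% of all contigs passed. The exceptions were dd_Smed_v6_7131_0 at 1.0, dd_Smed_v6_829_0 at 1.02 and dd_Smed_v6_25_0 at 1.64. This count reuses values on which the members were selected. It also raises contigs whose posterior-facing UMIs lie mostly in 1 cell. For dd_Smed_v6_750_0 the smallest ratio went from 3.55 to 69.6, as the step took 97.4% of its posterior-facing UMIs but 42.2% of those in replicate 1. Free RNA moved with some of these contigs: in barcodes under 100 UMIs dd_Smed_v6_2169_0 was at 136 and 689 against 19.6 CPM and dd_Smed_v6_750_0 at 589 and 2873 against 131 CPM, and its part in the levels in cells was not tested.

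Very few cells stood behind dd_Smed_v6_7131_0, at 3.32 and 3.18 against 0.0521 CPM at 16 hpa. All 55 UMIs of replicate 1 came from 1 cell, as did 76.2% of the 80 UMIs of replicate 2, and the posterior-facing library had 1 UMI. The ratio without the added 1 was 63.6 in replicate 1 (10.9 to 2557).

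Cluster 24, neuron-like with 8 of 15 neuron markers leading, led 8 contigs. Most neuron, ciliated and muscle markers were picked by human names in one annotation table of the study, and another table pairs most of them with other names, so that these cluster names are in doubt too. Cluster 24 held 55 cells (1.35%, 1.02% to 1.75%) of replicate 1, 54 (0.779%, 0.585% to 1.01%) of replicate 2 and 38 (0.806%, 0.571% to 1.10%) of the posterior-facing library, shares whose anterior- and posterior-facing intervals overlapped. Within it the median ratio was 2.36 in replicate 1 and 4.37 in replicate 2. The level of dd_Smed_v6_3312_0 was 14 CPM at 0 hpa, 4.12 at 6 hpa, 68.1 and 37.7 in the anterior-facing replicates, and 11.8 at the posterior-facing wound. In the same order dd_Smed_v6_5852_0 stood at 9.54, 0.550, 17.5, 7.20 and 1.62. Of the 4 members over 2-fold higher in replicate 1 than in replicate 2, 3 were led by this cluster. All 8 passed without the upper gene limit, with smallest ratios of 2.24 to 3.91, and 5 were at least 2-fold higher in barcodes over 2500 genes.

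Muscle-like clusters 9 and 18 led 2 contigs each. The level of dd_Smed_v6_17168_1 was 0.1004 CPM at 0 hpa, 0.550 at 6 hpa, 5.55 and 5.37 in the anterior-facing replicates, and 1.46 at the posterior-facing wound. All 16 hpa libraries were above 0 and 6 hpa. In cluster 9 it was at 39.5 and 57.7 against 18.0. In the order of the libraries dd_Smed_v6_41553_0 stood at 2.41, 0.687, 4.70, 4.25 and 1.41, and in cluster 9 at 60.9 and 63.7 against 7.89. Both rest on low counts, 28 and 27 UMIs at the posterior-facing wound.

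Across these groups, 65 members had over 50% of their UMIs in the cluster that led them, and 8 had under 20%. Among the 8, the level of dd_Smed_v6_6399_0 was 14.96 CPM at 0 hpa, 14.8 at 6 hpa, 44.5 and 41.1 in the anterior-facing replicates, and 19.6 at the posterior-facing wound, and dd_Smed_v6_5390_0 stood at 3.91, 16.8, 14.05, 21.3 and 4.85 in the same order. The levels of dd_Smed_v6_28592_0 were 1.10, 2.47, 8.50, 14.1 and 2.40. The first was as low at 6 hpa as at 0 hpa, whereas dd_Smed_v6_5390_0 was already high at 6 hpa. These 3 stayed above 2-fold without the gene limit, at 2.17, 2.52 and 2.91.

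The other members fell to clusters 21, 26, 19, 5 and 28. Ciliated-like cluster 21 led 4, among them dd_Smed_v6_1267_0, at 0.502 CPM at 0 hpa, 0.275 at 6 hpa, 7.24 and 13.0 in the anterior-facing replicates, and 0.939 at the posterior-facing wound. It was under 1 CPM except in both anterior-facing libraries. Cluster 21 held a median of only 11.8% of the 16 hpa UMIs of the 4 (3.25% to 21.9%). Outside the cluster their median ratio was 2.32 in replicate 1 and 3.46 in replicate 2. Intestine-like cluster 26 led 2, of which dd_Smed_v6_25_0 stood at 4.87, 35.2, 12.8, 12.4 and 3.86 in the same order and was highest at 6 hpa. Unnamed cluster 19 led 2, and neuron-like cluster 5 and parenchyma-like cluster 28 led 1 each, dd_Smed_v6_8091_0 at 35.6 and 17.8 against 7.51 CPM and dd_Smed_v6_2088_0 at 23.8 and 11.6 against 4.69 CPM at 16 hpa.

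The 0 hpa library, which the rule did not use, gives a level at the start of the time course. Both anterior-facing libraries were at least 2-fold above 0 hpa for 42 of the 87 contigs (48.3%), against 0.848% of all contigs tested, and at least 2-fold below it for 0 of 87, against 0.612%. With no upper gene limit the first count was 24 of 87, against 0.733% of all contigs, 10 of the 48 led by cluster 27 (23 within the limit) and 14 of the other 39 (19 within it). The 0 hpa level was at least 2-fold above the posterior-facing level for 21 of 87 (24.1%), against 1.34%, and at least 2-fold below it for 1, dd_Smed_v6_17168_1, against 0.516%. These counts share the 16 hpa libraries with the rule, which favoured contigs high at anterior-facing or low at posterior-facing wounds. The median ratio to 0 hpa was 2.16 in replicate 1, 2.13 in replicate 2 and 0.667 at the posterior-facing wound. Without the limit these medians were 1.64, 1.496 and 0.869, and the posterior-facing median was 0.928 for the members of cluster 27 and 0.652 for the others, so that the lower posterior-facing levels largely went in cluster 27.

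Single members lay far from these medians. With 1 added, dd_Smed_v6_91_0 was 24.3 and 11.8 times its 0 hpa level in replicates 1 and 2, dd_Smed_v6_574_0 11.2 and 9.49 times, and dd_Smed_v6_1267_0 5.48 and 9.35 times. For dd_Smed_v6_829_0 and dd_Smed_v6_3075_0 the 0 hpa level was the highest: dd_Smed_v6_829_0 stood at 82.7, 1.92, 69.7, 64.0 and 21.8 in the order of the libraries. For the 13 contigs of cluster 27 that passed without the gene limit, both anterior-facing libraries were at least 2-fold above 0 hpa in 13, and in 9 with no limit at either time. For the other 35 the counts were 10 and 1. The split into 13 and 35 used anterior-facing levels that also enter these counts, so that it favours the 13.

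At 6 hpa the levels were spread more widely. The 6 hpa level was at least 2-fold above the posterior-facing level for 30 of 87 (34.5%), against 3.14% of all contigs, and at least 2-fold below it for 11 (12.6%), against 21.2%. These counts share the posterior-facing library with the rule, which favoured contigs low there, so that they do not show a rise by 6 hpa. It was at least 2-fold above 0 hpa for 11 of 87 (12.6%), against 2.68%, and at least 2-fold below 0 hpa for 21 (24.1%), against 24%. The last share was near that of all contigs. The median ratio of 6 hpa to the posterior-facing level was 1.51 over the 87 but 0.779 without the upper gene limit. By group, the median ratio of 6 hpa to 0 hpa was 1.16 for the members of cluster 27 and 0.807 for the others, and 0.667 and 0.653 without the limit. The contigs of cluster 20 summed to 102 CPM at 6 hpa against 989 at 0 hpa, and that cluster held 10 and 114 cells at these times.

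**Figure D5:**
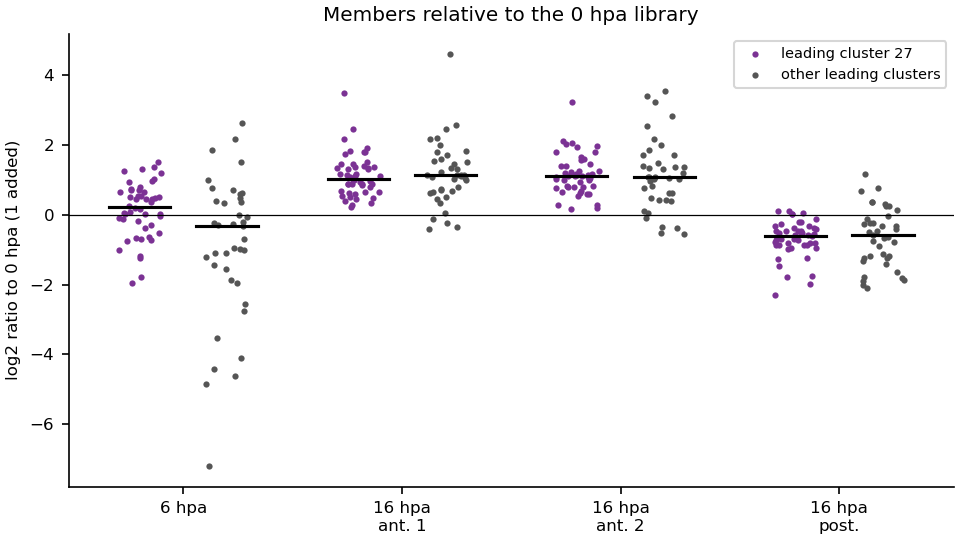
Log2 ratio of each member to its 0 hpa level (1 added) at 6 hpa, in both 16 hpa anterior-facing libraries and in the posterior-facing library, for the 48 members led by cluster 27 and the 39 others, with a line at each median. The medians of anterior-facing replicate 1 are 1.04 and 1.14, and those of the posterior-facing library are -0.60 and -0.58.

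Barcodes that took no part in the choice came from the same libraries. In barcodes over 2500 genes, 17 of the 87 contigs were at least 2-fold higher in both anterior-facing libraries (0.384% of all contigs), and 54 were higher in both (36.4%). In barcodes of 100 to under 1000 UMIs the counts were 12 (6.17%) and 33 (35.8%). In barcodes under 100 UMIs they were 17 (2.81%) and 52 (37.7%). The median smallest ratio of the 87 was 1.17, 0.788 and 1.18 in these 3 kinds of barcode, against 0.95, 0.870 and 0.927 over all contigs. Among barcodes of 100 to under 1000 UMIs the members' share higher in both was thus near that of all contigs.

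Members at least 2-fold higher in all 3 kinds of barcode numbered 3, against 0.059% of all contigs: dd_Smed_v6_574_0, dd_Smed_v6_1267_0 and dd_Smed_v6_5852_0. In barcodes over 2500 genes dd_Smed_v6_574_0 was at 36.9 and 28.2 against 1.63 CPM, and in those under 100 UMIs at 38.1 and 13.7 against 1.96 CPM. For dd_Smed_v6_1267_0 these levels were 14.1 and 18.2 against 2.65 CPM and 8.94 and 13.2 against 1.47 CPM. Conversely, in barcodes over 2500 genes dd_Smed_v6_715_0 was at 180.2 and 146 against 231 CPM, with the posterior-facing level the highest, and dd_Smed_v6_609_0 at 5.397 and 527 against 191 CPM, with the replicates on either side of it.

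None of the contigs of 5 lists of other genes was among the 87. Over all contigs tested only 0.642% were 2-fold higher and 0.125% 2-fold lower in both libraries. Lists this short would thus be likely to hold none, and their counts say little about these genes. The lists were early response (0 of 4 tested contigs 2-fold higher or lower in both libraries), TRAF family (0 of 8), patterning (0 of 11), mitochondrial (0 of 8) and ribosomal or ubiquitin genes (0 of 3). Apart from the mitochondrial contigs, *equinox* and *bmp4*, these lists rest on the same human names and share their doubt. The wound epidermis gene *equinox* (dd_Smed_v6_20318_0) was at 2.21 CPM at 0 hpa, 8.52 at 6 hpa, 8.62 and 15.3 in the anterior-facing replicates, and 6.10 at the posterior-facing wound. Its ratio with 1 added was 1.36 in replicate 1 and 2.30 in replicate 2, so that it passed in replicate 2 alone. The Bmp ligand gene *bmp4* (dd_Smed_v6_17402_0) was at 3.44 and 1.95 against 2.45, with no common direction. The 6 epidermal lineage markers summed to 17500 and 23128 CPM in the anterior-facing replicates and 25792 at the posterior-facing wound, so that their sum was not higher at anterior-facing wounds.

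At the threshold, dd_Smed_v6_4492_0, dd_Smed_v6_8_0 and dd_Smed_v6_5786_0 were just inside with a smallest ratio of 2.01, and dd_Smed_v6_3086_0, dd_Smed_v6_1902_0 and dd_Smed_v6_6985_0 were just outside at 1.999, 1.997 and 1.984. Levels of dd_Smed_v6_3086_0 were 9.39 CPM at 0 hpa, 60.1 at 6 hpa, 77.4 and 116 in the anterior-facing replicates, and 38.2 at the posterior-facing wound.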

How the data were processed

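UMIs were counted by the authors with Cell Ranger (major version 4, as the matrix headers state) over Smed_v6 transcripts mapped to Smes_g4, and the deposited values are raw counts per contig and barcode, before selection of cells. Here each barcode with 200 to 2500 genes and at least 1000 UMIs was taken as a cell. No doublet caller was run, so that the upper gene limit was the only guard. Counts were summed per library and given per 1000000 UMIs. Cells were clustered without the members (2000 variable contigs, log-transformed UMIs scaled to 10000 per cell, scaled within library, 11 dimensions, 20 neighbours, Leiden resolution 1, leidenalg 0.10.2) in Python 3.11.15. A cluster was named from at least 3 leading markers, of 73 marker contigs given partly a human name by the study and partly recalled from planarian cell atlases. The rule was run on simulated counts with known fold changes, drawn per contig and library with counting error only. Clumping of UMIs in single cells and differences between replicates were not simulated, so that the run says nothing about them. With 1 posterior-facing library no test across libraries was made. Alternatives changed the limits on barcodes, the scaling (TMM, edgeR 4.0.16 in R 4.3.3), the value added, the weights and the clustering. The contigs named were the 20 with the highest smallest ratio, the 5 others with most UMIs, the contig with a human name, those at the threshold and those of the lists. Further contigs were named after their values were seen. The members and lists were chosen with earlier results of these data known. No reference sequence or annotation was used here, and no sequence is shown.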

Additional observations from a re-analysis of the deposited data

How the results depend on the processing

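The count of 87 contigs at least 2-fold higher in both anterior-facing libraries was 52 with no upper limit on genes (42 among the 87). It was 151 under 10% mitochondrial UMIs (72 among the 87), 44 with 5 added, 209 at 1.5-fold and 35 at 3-fold. In barcodes over 2500 genes only it was 45, among contigs with at least 100 UMIs in those barcodes, a different set from the contigs tested above. Without either anterior-facing replicate it ranged from 135 to 251. It was 71 to 96 under the other alternatives. The median smallest ratio of 2.76 was 2.72 at 500 or more UMIs, 2.81 at 2000 or more UMIs, 1.96 with no upper limit, 2.96 under 10% mitochondrial UMIs, 2.02 with 5 added, 2.45 as a mean over cells, 2.27 with equal class makeup and 1.17 in barcodes over 2500 genes, and 3.09 to 3.12 without either replicate. With no upper limit dd_Smed_v6_4492_0 came to 0.868, and under 10% mitochondrial UMIs dd_Smed_v6_7131_0 came to 0.913. In barcodes over 2500 genes the smallest ratio was 0.854 for dd_Smed_v6_5958_0, 0.957 for dd_Smed_v6_2162_0, 0.864 for dd_Smed_v6_146_0, 0.714 for dd_Smed_v6_2385_0, 0.658 for dd_Smed_v6_499_0, 0.0333 for dd_Smed_v6_609_0, 0.795 for dd_Smed_v6_2178_0 and 0.593 for dd_Smed_v6_4492_0. The median ratio of 6 hpa over the posterior-facing level, 1.51, was 0.779 with no upper limit and 0.851 under 10% mitochondrial UMIs. The cause of these changes was not tested.

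Epidermal lineage-like clusters led 48 members, but 13 at resolution 0.5 and 2 with the members kept. Ciliated-like clusters led 4, but 39 at resolution 0.5 and 0 at resolution 2, when scaled over all libraries, with the members kept and with no upper limit. The median within-class ratio of 2.57 was 2.75 at resolution 0.5, 2.53 at resolution 2, 2.87 when scaled over all libraries and 2.42 with the members kept. The alternatives with the highest cell left out, with barcodes over 2500 genes only and with cells clustered without the upper limit were chosen after seeing the data. No paired analysis was possible because the groups compared share fewer than 2 replicate numbers and no test was made. The single posterior-facing library limits every side comparison, and its spread between animals is unknown.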
